A study of Mus musculus with 12 samples.

Results

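The 10 genes described here are genes of mast cells, of their granules, receptors and amine synthesis: the proteases Cpa3, Mcpt4, Cma1 and Tpsb2, the IgE receptor chains Fcer1a and Ms4a2, the stem cell factor receptor Kit, the serotonin enzyme Tph1, and the Mas-related receptors Mrgprx1 and Mrgprb2. They were taken by gene symbol from a deposited count table of 14533 genes, and all 10 were found in it. They had been chosen by the difference in their levels between the groups in these same libraries, so their differences between groups are given as a description with no p-value, and that they pass a threshold in this contrast was set by the choice and is no result. Epidermal scrapings of untreated, non-lesional dorsal skin were sequenced from 12 C57BL/6 mice, 1 library per mouse. The 6 WT mice carried Pparg flox/flox and no Cre, and the 6 Pparg-/-epi mice carried Pparg flox/flox and a Cre driven by the cytokeratin 14 promoter, which is active in basal keratinocytes. By the sample labels both groups were 8 to 13 weeks old, with 3 females and 3 males among the WT mice and 4 females and 2 males among the Pparg-/-epi mice. Skin was scraped until the vessels under the epidermis came into view, so some superficial dermis was included.

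Mast cells arise from bone marrow progenitors and mature in tissues, where Kit and its ligand keep them alive. They store chymases, tryptases and carboxypeptidase A3 with histamine on a heparin core, and release them when IgE bound to the receptor FceRI meets its antigen. Those of mouse connective tissue also carry Mrgprb2, a receptor for peptides and drugs that make mast cells degranulate without IgE.

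Counts per library summed to between 10120840 and 16947632 in WT mice and between 11272135 and 18851255 in Pparg-/-epi mice. Values are given as CPM, counts scaled to a common library size with edgeR's TMM factors, and, where genes are compared with each other, as RPKM, which also divides by exon length. Altered genes were those with an adjusted p below 0.05 in edgeR's quasi-likelihood test whose fitted log2 difference reached 0.6 in size, and all adjusted p-values of genes below come from this test. Pparg itself lay between 0.533 and 14.3 CPM in WT mice and between 1.33 and 6.49 CPM in Pparg-/-epi mice, and counts summed over the whole gene do not tell the genotypes apart (adjusted p = 0.949). The 5 keratinocyte markers, Krt10 and Krt5 among them, summed to between 13615 and 45799.6 CPM and were high in every library. The 7 fibroblast markers ranged more widely in WT mice, from 1022 CPM in replicate 6 to 34614 CPM in replicate 1, than in Pparg-/-epi mice, from 5363 to 11271 CPM. WT replicate 5 had 8619.5 CPM of the 4 skeletal muscle markers. WT replicate 2 stood apart in that 2249 genes were altered without it against 1493 with it.

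The 250 bases before the start of 4 of the genes are shown because these genes mark the ways in which the set behaved: Cpa3 and Ms4a2 rose and fell together from mouse to mouse, Fcer1a was at or near 0 in WT mice, and Mrgprb2 alone was lower in Pparg-/-epi mice. The sequences are from RefSeq, on GRCm38.p6, and read 5′ to 3′ on the minus strand. Capitals mark AGATAA or TGATAA, letters that GATA factors bind, and CACGTG or CATGTG, an E box, on either strand. No letters of the 2 kinds overlapped.
Cpa3, chr3:20242182-20242431: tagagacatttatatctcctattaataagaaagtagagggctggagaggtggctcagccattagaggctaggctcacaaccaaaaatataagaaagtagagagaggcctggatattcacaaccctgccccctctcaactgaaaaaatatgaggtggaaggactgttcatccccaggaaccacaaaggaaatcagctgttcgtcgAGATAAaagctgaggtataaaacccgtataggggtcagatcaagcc
Ms4a2, chr19:11623720-11623969: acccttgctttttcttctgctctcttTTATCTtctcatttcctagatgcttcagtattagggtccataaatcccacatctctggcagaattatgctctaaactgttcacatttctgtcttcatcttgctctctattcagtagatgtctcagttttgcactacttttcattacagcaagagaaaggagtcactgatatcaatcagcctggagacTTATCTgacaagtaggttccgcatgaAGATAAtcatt
Fcer1a, chr1:173227230-173227479: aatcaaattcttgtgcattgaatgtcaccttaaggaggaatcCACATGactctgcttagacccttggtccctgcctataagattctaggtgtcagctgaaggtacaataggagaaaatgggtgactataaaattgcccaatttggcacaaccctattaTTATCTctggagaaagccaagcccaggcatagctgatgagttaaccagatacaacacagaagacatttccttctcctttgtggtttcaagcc
Mrgprb2, chr7:48558087-48558336: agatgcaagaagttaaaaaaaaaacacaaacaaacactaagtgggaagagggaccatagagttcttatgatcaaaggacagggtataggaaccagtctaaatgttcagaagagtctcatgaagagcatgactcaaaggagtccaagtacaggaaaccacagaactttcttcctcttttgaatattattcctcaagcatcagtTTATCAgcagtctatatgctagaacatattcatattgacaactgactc
RefSeq promoters were matched for 9 of the 10 genes, all but Tpsb2, and gave 11 windows because Kit and Tph1 have 2 starts each. GATA letters were found in 6 of the 11 windows, those of Cpa3, Mcpt4, Fcer1a, Ms4a2, Mrgprx1 and Mrgprb2, with 3 matches in Ms4a2. Of all 32851 promoters of this length, 16.6% hold them. The E box letters were found in Fcer1a and in no other of the 11 windows, against 17.6% of all promoters. These matches are descriptions of the letters, and no binding was measured.

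Of the 10 genes 9 were higher and Mrgprb2 was lower in Pparg-/-epi mice, and all 10 lay past both thresholds, as their choice had set. Of all genes listed 10.3% were altered, 5.19% higher and 5.08% lower, and nothing is read from the comparison. The levels did not overlap between groups for 8 of the 10 genes, as for 7.90% of all genes, and overlapped for Tpsb2 and Mrgprb2. The median log2 fold change of the 10 genes was 1.79, against -0.01 over all genes. The table lists a gene only where it passed 0.5 CPM in at least 6 libraries. Fcer1a and Mrgprx1 passed that level in 6 Pparg-/-epi and 0 WT libraries, and Tph1 in 6 and 1, so these 3 could be listed only through the group in which they were higher. In the 7 female mice alone 5 of the 10 genes (Fcer1a, Kit, Tph1, Mrgprx1 and Mrgprb2) lay past the thresholds, where 651 genes of the table did. Against the 2 WT mice of the breeding numbers 217 and 222 alone, 3 did (Fcer1a, Kit and Tph1), where 389 of the table did. That comparison was picked after seeing the data. Both counts come from mice by which the genes were chosen, so they are descriptions and lend the genes no support. In RNA from whole scrapings, a change in the number of cells and a change in RNA per cell cannot be told apart.

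**Figure D1:**
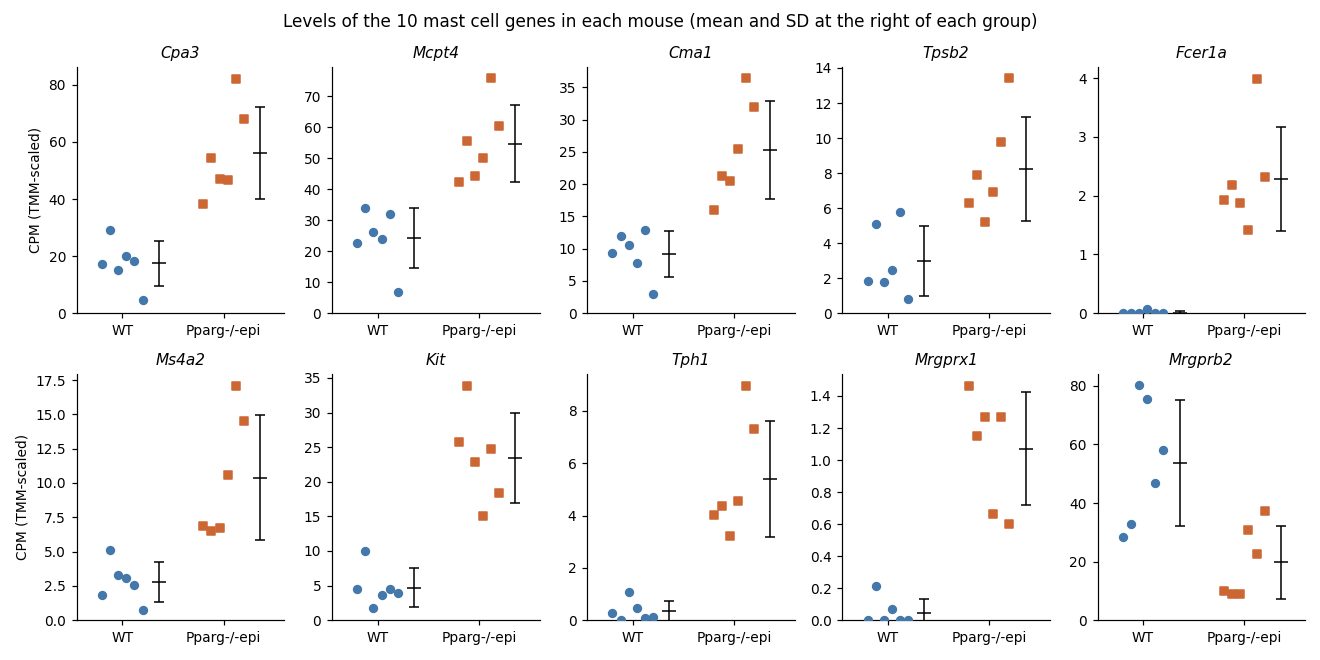
Level of each of the 10 genes in CPM on a linear axis that starts at 0, with 1 point per mouse (circles WT, squares Pparg-/-epi, 6 in each group) and the mean ± SD beside each group, cut off at 0. Pparg-/-epi mice lie above WT mice without overlap for 8 genes, above with overlap for Tpsb2, and for Mrgprb2 the WT mice, at 28.5 to 80.3 CPM, lie mostly above the Pparg-/-epi mice, at 8.85 to 37.3 CPM.

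Among the proteases, Cpa3 (chromosome 3, 20215616 to 20242181 of mm10), which trims peptides from their C-terminal end in the granule, was lowest at 4.72, at the median 17.7 and highest at 29.3 CPM in WT mice, and 38.4, 50.7 and 82.2 CPM in Pparg-/-epi mice. The groups were fully separate. The fitted log2 fold change was 1.68 (SE 0.33, n = 6 in each group).

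Mcpt4 (chromosome 14, 56059744 to 56062310), a chymase of connective tissue mast cells, had 6.73, 25.0 and 33.9 CPM as the lowest, median and highest WT values and 42.3, 52.7 and 75.8 CPM in Pparg-/-epi mice. At 1.17 (SE 0.30), its log2 fold change was the smallest of the 9 that were higher. Cma1 (chromosome 14, 55941451 to 55944661), a second chymase of the same gene cluster, had 3.02, 9.91 and 12.9 CPM in WT mice and 16.0, 23.4 and 36.4 CPM in Pparg-/-epi mice. It differed by 1.45 (SE 0.30) on the log2 scale. For both chymases the groups were fully separate, and WT replicate 6 was the lowest of all mice. Of stretches of 75 bases in their transcripts, 2.51% of those of Mcpt4 and 1.67% of those of Cma1 also occur in another gene, and how such reads were counted was not tested.

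Tpsb2 (chromosome 17, 25366333 to 25368092), a tryptase, had 0.818, 2.17 and 5.77 CPM in WT mice and 5.21, 7.39 and 13.4 CPM in Pparg-/-epi mice. The groups overlapped slightly, since WT replicate 5, at the top of the WT range, exceeded the lowest Pparg-/-epi mouse. The log2 fold change was 1.46 (SE 0.42), and it lay between 1.27 and 1.76 when any 1 mouse was left out.

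The IgE receptor has a chain that holds IgE, encoded by Fcer1a, a beta chain that amplifies the signal, encoded by Ms4a2, and a gamma chain shared with other receptors, encoded by Fcer1g. Fcer1a (chromosome 1, 173221271 to 173227229) had 1 count in WT replicate 4 and 0 in the other WT mice, against 17 to 44 counts in Pparg-/-epi mice. In CPM the WT mice were at 0 to 0.0672 and the Pparg-/-epi mice at 1.41, 2.05 and 3.98 as the lowest, median and highest. The summed counts of 1 and 192 gave a ratio of 193 between the groups after scaling, with a 95% interval from 34.2 to 7652 that covers counting error only. The fitted log2 fold change, 6.83 (SE 0.58), depends on the prior count and is no bound.

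Ms4a2 (chromosome 19, 11615521 to 11623719) was measured well in both groups, at 0.755, 2.81 and 5.09 CPM in WT mice and 6.49, 8.76 and 17.1 CPM in Pparg-/-epi mice. Its groups did not overlap, and the log2 fold change was 1.90 (SE 0.40). Fcer1g was not altered and was at 23.7 to 40.4 CPM in WT mice and 19.9 to 33.4 CPM in Pparg-/-epi mice (log2 fold change -0.13, SE 0.16, adjusted p = 0.626). The WT mice therefore had reads for the beta and gamma chains and next to none for the chain that holds IgE.

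Kit (chromosome 5, 75574987 to 75656721), the receptor tyrosine kinase on which mast cells depend, had 1.70, 4.20 and 9.98 CPM in WT mice and 15.1, 23.7 and 33.9 CPM in Pparg-/-epi mice. The groups were separate, with WT replicate 2 far above the other WT mice, and the log2 fold change was 2.30 (SE 0.34), or 2.66 without that mouse. Kit is also made by melanocytes, and the 5 melanocyte markers in the table (Mlana, Dct, Tyrp1, Pmel and Sox10, of 6 listed) summed to 7.03 to 44.4 CPM in WT and 12.3 to 174 CPM in Pparg-/-epi mice, none of them at 0 in a whole group and none altered. With group means subtracted, Kit and this sum had a Pearson r of 0.70 and a Spearman rho of 0.68 over the 12 mice. The part of melanocytes in the level of Kit was not tested.

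Tph1 (chromosome 7, 46644641 to 46672537), the enzyme that starts serotonin synthesis outside neurons, was counted 0 to 10 times in WT mice and 53 to 99 times in Pparg-/-epi mice. In CPM these were 0, 0.191 and 1.07 against 3.21, 4.47 and 8.95. The groups did not overlap, and the summed counts of 24 and 441 gave a ratio of 18.4 (95% interval 12.2 to 29.1, counting error only) beside a fitted log2 fold change of 4.11 (SE 0.66).

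Mrgprx1 (chromosome 7, 48020971 to 48027597), known best as an itch receptor of sensory neurons, had 4 counts in WT replicate 2, 1 in WT replicate 4 and 0 in the other WT mice. Pparg-/-epi mice had 7 to 28 counts, or 0.601, 1.21 and 1.46 CPM as the lowest, median and highest. No WT mouse reached the lowest of them, and the ratio of the summed counts, 5 and 97, was 19.5 (95% interval 8.06 to 61.3, counting error only), with a fitted log2 fold change of 4.10 (SE 0.66).

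Mrgprb2 (chromosome 7, 48550966 to 48558086) went the other way. WT mice had 28.5, 52.3 and 80.3 CPM as the lowest, median and highest values, and Pparg-/-epi mice 8.85, 16.2 and 37.3 CPM. The 3 Pparg-/-epi mice of replicates 7 to 9 lay at 8.85 to 9.83 CPM, below every WT mouse, while replicates 10 to 12, at 22.6 to 37.3 CPM, reached into the WT range. The log2 fold change was -1.45 (SE 0.41). It stayed between -1.73 and -1.30 when any 1 mouse was left out.

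That split followed the breeding number in the mouse names. Pparg-/-epi replicates 7 to 9 carried the numbers 192 and 195, which no other mouse had, and were all female. Cma1 split there too, at 16.0 to 21.3 against 25.5 to 36.4 CPM in replicates 10 to 12. So did Ms4a2 (6.49 to 6.87 against 10.6 to 17.1 CPM) and Tph1 (3.21 to 4.37 against 4.57 to 8.95 CPM). For Cpa3, Mcpt4, Tpsb2, Fcer1a, Kit and Mrgprx1 these mice overlapped. Among WT mice, those of 217 and 222 were apart from those of 226 for Mrgprb2 and Kit (4.47 to 9.98 against 1.70 to 4.43 CPM) alone. With Pparg-/-epi mice of the numbers 222 and 225 alone, a comparison chosen after seeing the data, the log2 fold change of Mrgprb2 was -0.85 (SE 0.34), and with WT mice of the numbers 217 and 222 alone it was -0.63 (SE 0.55). The number 222 was the 1 number with mice of both groups, 1 of each, and these had 33.0 CPM (WT) and 30.9 CPM (Pparg-/-epi) of Mrgprb2 against 29.3 and 46.7 CPM of Cpa3. For Mrgprb2 a female-minus-male difference in the effect of -1.55 on the log2 scale had an unadjusted p of 0.0371 and an adjusted p of 0.895 in edgeR's quasi-likelihood test, where 0 genes passed the adjusted threshold and 741 had an unadjusted p under 0.05. In females alone the log2 fold change of Mrgprb2 was -2.16 (SE 0.42).

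The RNA integrity number (RIN) of the labels moved with Mrgprb2 as well. It was 7.7 to 8.6 in Pparg-/-epi replicates 7 to 9 and 5.7 to 7.7 in replicates 10 to 12. Among WT mice, replicates 1 and 2, with the lowest Mrgprb2 at 28.5 and 33.0 CPM, had a RIN of 7.4 and 8.6, and the other 4, at 46.7 to 80.3 CPM, had 5.9 to 7.1. With RIN as a covariate the log2 fold change of Mrgprb2 was -1.19 (SE 0.37). Age split the WT mice in the same way, at 8 and 9 weeks in replicates 1 and 2 and 12 to 13 weeks in the other 4. It was 12 to 13 weeks in Pparg-/-epi replicates 7 to 9 and 8 to 12 weeks in replicates 10 to 12. With age as a covariate the log2 fold change of Mrgprb2 was -1.50 (SE 0.45). The parts of breeding, sex, age and RNA quality in its level cannot be told apart among these mice. The same holds for Cma1, Ms4a2, Tph1 and Kit.

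Per length, Mcpt4, Cpa3, Cma1 and Tpsb2 stood in the same order in both groups, and Mrgprb2 and Tph1 changed place. In WT mice median RPKM was 25.3 for Mcpt4, 25.2 for Mrgprb2, 12.2 for Cpa3, 9.21 for Cma1, 1.99 for Tpsb2, 0.998 for Ms4a2, 0.810 for Kit, 0.0401 for Tph1 and 0 for Fcer1a and Mrgprx1. Mcpt4 and Mrgprb2 could not be ranked, each being the higher in 3 of 6 WT mice, nor could Ms4a2 and Kit in either group. In WT mice Mrgprb2 was above Cpa3 in 5 of 6 and Tph1 above Fcer1a in 5 of 6. In Pparg-/-epi mice median RPKM was 53.2 for Mcpt4, 34.9 for Cpa3, 21.8 for Cma1, 7.81 for Mrgprb2, 6.79 for Tpsb2, 4.58 for Kit, 3.11 for Ms4a2, 2.00 for Fcer1a, 1.02 for Mrgprx1 and 0.940 for Tph1. The first 3 kept their order in every Pparg-/-epi mouse, and Mrgprb2 was below Cma1 in all 6 of them and could not be ranked against Tpsb2. Fcer1a was above Tph1, which could not be ranked against Mrgprx1, in all 6.

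Whether the genes moved together from mouse to mouse was asked after subtracting each group's mean, so that the difference between groups plays no part. The 4 proteases did so closely: the 6 pairs among them had a Pearson r between 0.82 and 0.96 over the 12 mice. Each was compared with the mean log2 CPM of the other 3, with a prior count of 2, and gave r = 0.93 for Cpa3 (Spearman rho 0.85), 0.96 for Mcpt4 (0.96), 0.93 for Cma1 (0.87) and 0.85 for Tpsb2 (0.80). Ms4a2, which encodes no protease, followed them with r = 0.88 (rho 0.81) against all 4. Over 14239 genes with a mean of at least 10 counts the median r with the protease mean was 0.02, and 38 genes, 0.267%, were over 0.8. The 4 proteases and Ms4a2 are counted in that share, whereas the shares given below for Kit and Mrgprb2 leave the gene itself out. The points of such a correlation share a library, its depth and its scaling, and the values carry no p.

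Part of this rests on the mice at the ends. WT replicate 6 had the lowest protease mean, 1.66 on the log2 scale, and Pparg-/-epi replicate 11 the highest, 5.28. Without both, r was 0.72 for Cpa3, 0.94 for Mcpt4, 0.73 for Cma1, 0.85 for Tpsb2 and 0.67 for Ms4a2. WT replicate 6 was also the mouse with the least fibroblast RNA, and the protease mean had r = 0.54 (rho 0.17) with the fibroblast sum and 0.67 (rho 0.60) with the sum of 4 adipocyte markers, which was at 1.81 to 111 CPM in WT and 6.40 to 40.1 CPM in Pparg-/-epi mice. The part of scraping depth in the covariation was not tested.

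**Figure D2:**
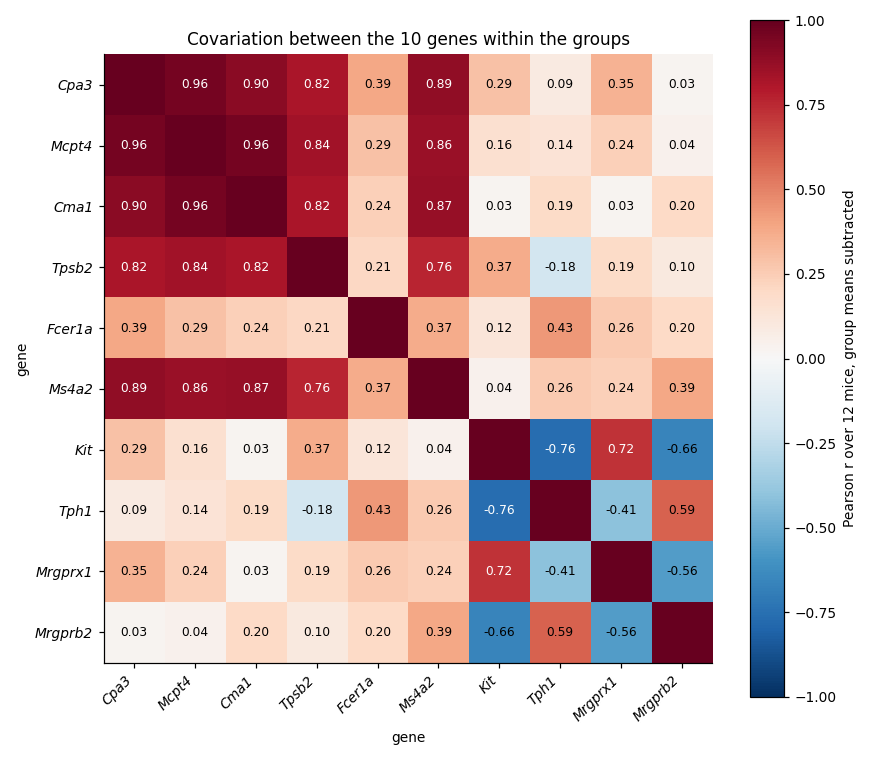
Pearson r between each pair of the 10 genes over 12 mice, from log2 CPM with the group means subtracted (red positive, blue negative). The proteases and Ms4a2 form a block with r of 0.76 to 0.96, and Kit is negatively related to Tph1 (-0.76) and Mrgprb2 (-0.66).

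The other 5 genes did not follow the proteases across all mice. Kit had r = 0.23 (rho 0.17) with the protease mean, Fcer1a 0.30 (0.55), Mrgprx1 0.22 (0.06), Tph1 0.05 (0.08) and Mrgprb2 0.09 (0.26). For Fcer1a, Tph1 and Mrgprx1 the WT counts, 0 to 10, leave a counting error that is large beside their spread. Within the 6 Pparg-/-epi mice, where they were measured, Tph1 had r = 0.95 (rho 0.89) with the proteases and Fcer1a 0.73 (0.77), whereas Mrgprx1 had -0.42 (-0.60). Tph1 was highest in replicates 11 and 12, both of breeding number 225, at 8.95 and 7.30 CPM. The protease mean was highest in the same mice, at 5.28 and 5.19. Fcer1a was highest in replicate 11, at 3.98 CPM. The parts of breeding and RNA quality in these correlations were not tested. Kit, which was well measured in both groups, had 0.32 (0.37) in WT and -0.13 (-0.09) in Pparg-/-epi mice.

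Kit went instead with marker sums of several other cell types. Its group-centred r was 0.81 (rho 0.82) with the sum of 5 endothelial markers, 0.84 (0.69) with the adipocyte sum and 0.86 (0.76) with Kitl, the gene of its own ligand. The 5 endothelial markers, led by Pecam1, summed to 4.34 to 102 CPM in WT and 22.7 to 159.7 CPM in Pparg-/-epi mice, and none was at 0 (log2 difference 1.85, exact permutation test, two-sided, p = 0.0671, adjusted p = 0.433 over 10 marker lists). With the macrophage sum it was 0.71 (rho 0.70), with Itga2, the 1 basophil marker in the table, 0.72 (0.64), with the 7 fibroblast markers 0.19 (0.55) and with the keratinocyte sum -0.75 (-0.38). In Pparg-/-epi mice the endothelial sum split by breeding number, at 120.3 to 159.7 CPM in replicates 7 to 9 and 22.7 to 50.8 CPM in replicates 10 to 12. The melanocyte sum did too, at 49.9 to 174 and 12.3 to 14.1 CPM. The part of any of these cells in the level of Kit was not tested, nor were those of breeding and RNA quality in these correlations. Kit also had r = 0.72 with Mrgprx1, -0.76 with Tph1 and -0.66 with Mrgprb2. At the same time 860 of 14239 genes, 6.04%, had r over 0.8 with Kit, so such values were common for it.

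**Figure D3:**
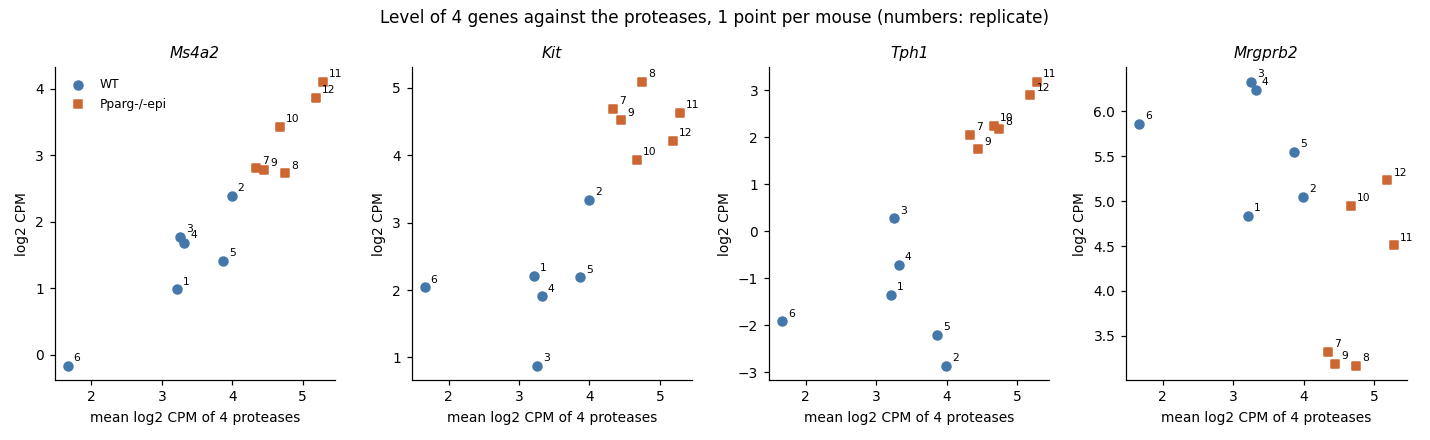
Level of Ms4a2, Kit, Tph1 and Mrgprb2 (log2 CPM) against the mean log2 CPM of the 4 proteases, with 1 point per mouse, numbered by replicate (circles WT, squares Pparg-/-epi). Ms4a2 follows the proteases through both groups, Tph1 does so within the Pparg-/-epi mice, and the Pparg-/-epi mice 7 to 9 lie lowest for Mrgprb2 at protease levels like those of replicate 10.

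Mrgprb2 departed from the proteases in the direction of its difference and in its spread. Its r with them was -0.30 (rho -0.14) within WT mice and 0.69 (rho 0.37) within Pparg-/-epi mice, and -0.55 when the groups were pooled without centring. Taken relative to the protease mean in the same library, Mrgprb2 of WT mice was at 2.43 ± 1.17 (SD, n = 6) on the log2 scale and that of Pparg-/-epi mice at -0.72 ± 0.74 (SD, n = 6), a difference of -3.15. That the sign is the opposite of the proteases' was set by the choice of genes. On this scale the groups did not overlap, from 1.06 to 4.20 in WT mice and from -1.58 to 0.28 in Pparg-/-epi mice, while in CPM they did. Subtracting genes chosen as higher from a gene chosen as lower widens the gap by itself, so this is a description and no result. The share of all genes that are separate on this scale was not computed. The difference lay between -3.42 and -2.79 when any 1 mouse was left out.

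In counts, WT mice had 284 Mrgprb2 reads for every 100 of Cpa3, and Pparg-/-epi mice 32.9. By mouse the WT values ran from 113 in replicate 2 to 1228 in replicate 6, and the Pparg-/-epi values from 16.2 to 66.1. Ms4a2 was at 15.7 and 17.9 per 100 Cpa3 reads in WT and Pparg-/-epi mice, Cma1 at 50.7 and 44.5, and Tpsb2 at 16.9 and 14.6, and for these 3 genes the mice of the groups overlapped. Kit stood at 28.5 and 44.9, again with overlap. Mcpt4 fell behind Cpa3, with 134 reads per 100 in WT and 98.4 in Pparg-/-epi mice. Here the groups did not overlap, from 116 to 175 in WT mice and from 88.9 to 110.3 in Pparg-/-epi mice. Cpa3 and the genes set against it were chosen for their differences between groups. The share of all genes that are separate on this scale was not computed, so these ratios are a description and no result.

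The 3 genes near 0 in WT mice lay off the proteases in the other direction. They were listed through their level in Pparg-/-epi mice and chosen for their difference, so a shortfall in WT mice was set beforehand and its size is given as a description alone. At the ratio to Cpa3 seen in Pparg-/-epi mice, 64.4 Fcer1a counts would correspond to the 1 found in the 6 WT mice. For Tph1 the figures were 148 and 24 counts, and for Mrgprx1 32.5 and 5, and relative to the protease mean the groups overlapped for Mrgprx1. Relative to the protease mean, the difference between groups was 2.41 for Fcer1a, 2.28 for Tph1 and 1.19 for Mrgprx1 on the log2 scale, against -0.26 to 0.25 for the 4 proteases, 0.37 for Ms4a2 and 0.86 for Kit. At prior counts of 0.5 and 5 the value for Fcer1a was 4.16 and 1.31 and that for Mrgprx1 2.61 and 0.31, so the sizes of these differences depend on how counts near 0 are handled.

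Mrgprb2 had a close companion in its neighbour Mrgprb3 (chromosome 7, 48642863 to 48643801), a receptor of the same family. Mrgprb3 was at 24.5, 41.0 and 61.4 CPM in WT mice and 8.55, 17.5 and 24.5 CPM in Pparg-/-epi mice. It was altered, with a log2 fold change of -1.27 (SE 0.30, adjusted p = 0.0141), and 219.9 Mrgprb3 reads per 100 of Cpa3 in WT mice stood against 29.8 in Pparg-/-epi mice. The groups met at 24.5 CPM. Mrgprb3 split by breeding number as Mrgprb2 did, with 8.55 to 12.3 CPM in Pparg-/-epi mice of 192 and 195, 22.6 to 24.5 CPM in those of 222 and 225, 24.5 to 26.3 CPM in WT mice of 217 and 222 and 37.8 to 61.4 CPM in those of 226. The log2 fold change of Mrgprb3 was -1.54 in females alone (adjusted p = 0.0649), -0.85 with the Pparg-/-epi mice of 222 and 225 alone (adjusted p = 0.132) and -0.55 with the WT mice of 217 and 222 alone (adjusted p = 0.459), and it was altered in none of these 3 comparisons. The group-centred r between Mrgprb2 and Mrgprb3 was 0.94 (rho 0.88), and 1.00 (rho 1.00) within the WT mice. High values were common for Mrgprb2: 1142 of 14239 genes, 8.02%, had r over 0.8 with it, and some reached 0.98. No stretch of 75 bases of either gene occurs in another gene's transcripts.

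Nearer to the other side, Mrgprb1 (chromosome 7, 48444113 to 48456342) and Mrgprx2 (48478619 to 48499270) were higher in Pparg-/-epi mice. Mrgprb1 had 0.881, 2.33 and 5.15 CPM in WT and 4.89, 7.76 and 12.5 CPM in Pparg-/-epi mice, and was altered (log2 fold change 1.65, SE 0.39, adjusted p = 0.0132). It followed the proteases with r = 0.84 (rho 0.84), and with 0.74 without WT replicate 6 and Pparg-/-epi replicate 11. It stood at 14.7 and 14.0 reads per 100 of Cpa3. Mrgprx2 had 0.107, 0.625 and 0.955 CPM in WT and 1.87, 2.48 and 4.07 CPM in Pparg-/-epi mice, with no overlap (log2 fold change 2.15, SE 0.38, adjusted p = 0.00303). Of 19 further receptors of the Mas-related family, 5 were in the table, and the remaining ones, Mrgpre and Mrgprf, were not altered (log2 fold changes 0.50 and -0.11). All 5 genes from Mrgprx1 to Mrgprb3 lie on the minus strand, and no annotated gene overlaps Mrgprb2.

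**Figure D4:**
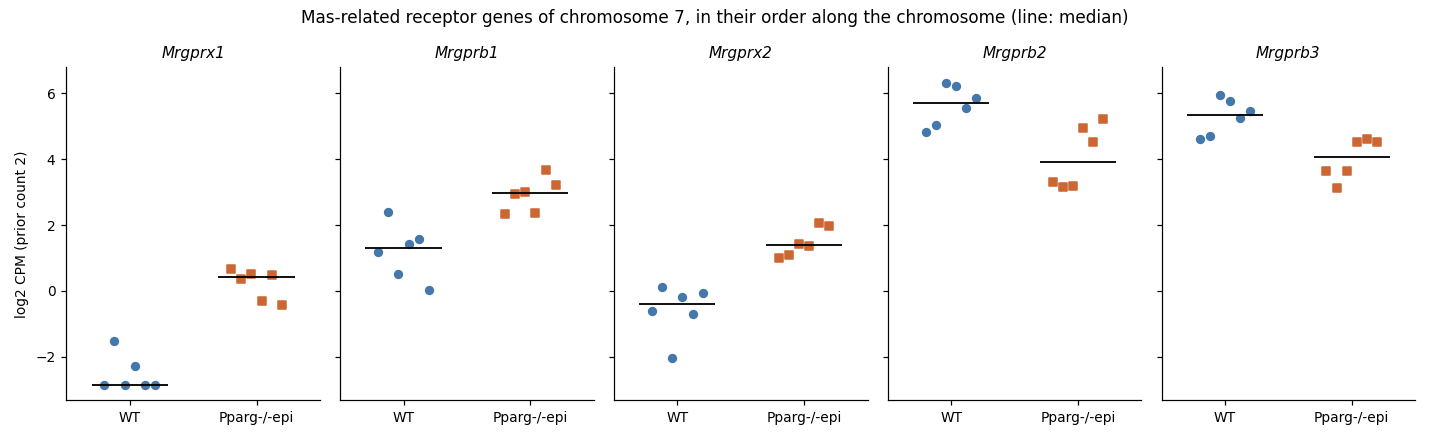
Level of 5 Mas-related receptor genes in log2 CPM with a prior count of 2, in their order along chromosome 7, with 1 point per mouse (circles WT, squares Pparg-/-epi) and a line at the median. Mrgprx1, Mrgprb1 and Mrgprx2 are higher in Pparg-/-epi mice, and Mrgprb2 and Mrgprb3, at 28.5 to 80.3 and 24.5 to 61.4 CPM in WT mice, are lower.

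The genes most like Mrgprb2 from mouse to mouse were Hsf2, Gt(ROSA)26Sor, Pvrl3, Abhd17b and Trmt2a, with group-centred r of 0.97 to 0.98 over 12 mice. Of these Pvrl3, an adhesion molecule of epithelia, differed the most between groups (log2 fold change -2.31, SE 0.34, adjusted p = 0.00106). For Mrgprb2 1142 of 14239 genes, 8.02%, had r over 0.8, about as common as for Kit and far from the 0.267% of the proteases. The sum of 4 T cell markers (Cd3d, Cd3e, Cd3g and Cd2, of 6 listed, none at 0) followed Mrgprb2 with r = 0.81 (rho 0.81) and was at 41.2 to 94.6 CPM in WT and 32.8 to 65.9 CPM in Pparg-/-epi mice (log2 difference -0.44, exact permutation test, two-sided, p = 0.0866, adjusted p = 0.433). The endothelial sum went the opposite way, with r = -0.84 (rho -0.78), as did the melanocyte sum, with -0.76 (rho -0.76). In Pparg-/-epi mice the T cell sum split as Mrgprb2 did, at 32.8 to 43.9 CPM in replicates 7 to 9 and 54.3 to 65.9 CPM in replicates 10 to 12. The endothelial and melanocyte sums split there in the other direction. The part of other cell types in the level of Mrgprb2 was not tested.

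The genes most like the proteases were led by Cyp11a1, the enzyme that turns cholesterol into pregnenolone, with r = 0.94. It was higher in Pparg-/-epi mice (log2 fold change 1.50, SE 0.44, adjusted p = 0.0366). The next 9 were Ap1s2, Id2, AI467606, Fxyd5, Sult1a1, Cpeb1, Serpinb1a, Hs6st2 and Celf2, with r of 0.86 to 0.92, and of these Ap1s2 (0.67, adjusted p = 0.0308) and Serpinb1a (1.23, adjusted p = 0.00651) were altered.

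The 5 lists of other mast cell genes, 66 in all of which 44 were in the table, were examined by the same test. Of the 44, 9 were higher and 5 lower in Pparg-/-epi mice, beside 5.19% and 5.08% over the table. In females alone 4 of the 44 were altered, and with the Pparg-/-epi mice of the numbers 222 and 225 alone 3 were. With single mice left out, the adjusted p rose above 0.05 or the fold fell below the limit in 7 of 12 fits for Hdc, 5 for Gzmb, 7 for Plcg2, 9 for Kitl, 8 for Csf2rb and 3 for Pla2g4a, and in none for the other 8. Among 7 other granule genes, Hdc, which makes histamine, was altered (log2 fold change 1.75, SE 0.50, adjusted p = 0.0328), as was the granzyme Gzmb (1.71, SE 0.47, adjusted p = 0.0264). Hdc followed the proteases with r = 0.76 (rho 0.79) and stood at 7.91 and 8.11 reads per 100 of Cpa3 in WT and Pparg-/-epi mice, and Gzmb had r = -0.16 with them. Tpsg1 and Slc18a2, the carrier that loads amines into granules, had r of 0.81 and 0.82. Their log2 fold changes were 1.22 (adjusted p = 0.136) and 1.34 (adjusted p = 0.0666). Without WT replicate 6 and Pparg-/-epi replicate 11, the mice at the ends, r was 0.78 for Hdc, 0.69 for Tpsg1 and 0.18 for Slc18a2. The most abundant of the list per length, Ndst2 and Srgn, were not altered (0.14 and 0.76, adjusted p = 0.441 and 0.0703). The list's median was 1.22 and all 7 of its genes had a log2 fold change above 0.

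Of 10 genes for growth and transcription, 4 were higher and none lower. They were Gata2, a factor that mast cells need (log2 fold change 1.48, SE 0.30, adjusted p = 0.00608), Kitl (1.12, SE 0.33, adjusted p = 0.0382), and the cytokine receptor chains Csf2rb (1.04, SE 0.29, adjusted p = 0.0318) and Csf2rb2 (1.30, SE 0.24, adjusted p = 0.00386). Gata2 stood at 17.7 and 16.1 reads per 100 of Cpa3. It followed the proteases with r = 0.85 (rho 0.78), and with 0.47 without WT replicate 6 and Pparg-/-epi replicate 11. Kitl and Csf2rb2 did not follow them, with r of -0.05 and 0.31. Cd63, a granule membrane protein and the most abundant of the list per length, was not altered (0.45, adjusted p = 0.156).

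The enzymes of lipid mediators moved with Mrgprb2 rather than with the proteases in direction: 4 of 7 were lower and none higher. Hpgds, which makes prostaglandin D2, had 138, 208 and 319 CPM in WT and 47.3, 71.0 and 111 CPM in Pparg-/-epi mice (log2 fold change -1.60, SE 0.27, adjusted p = 0.00213). Ltc4s, which makes leukotriene C4, had a log2 fold change of -1.54 (SE 0.31, adjusted p = 0.00544), though 10.2% of its stretches of 75 bases occur in another annotated gene. Alox5 (-0.94, adjusted p = 9.42e-04) and Pla2g4a (-0.62, adjusted p = 0.00521) were the other two, and Ptgs1, the most abundant of the list per length, was not altered (-0.44, adjusted p = 0.230). From mouse to mouse Mrgprb2 had r = 0.85 (rho 0.80) with Ltc4s, 0.73 (rho 0.65) with Hpgds and 0.44 (rho 0.41) with Alox5. Over the same 12 mice the proteases had 0.09, -0.12 and -0.26 with these genes. That contrast came from the WT mice, where Mrgprb2 had 0.97, 0.66 and 0.88 and the proteases -0.17, -0.52 and -0.41. Within the Pparg-/-epi mice the proteases followed these enzymes too, with 0.86, 0.84 and 0.54, beside 0.86, 0.83 and 0.00 for Mrgprb2. An r over 0.8 was found for 8.02% of genes with Mrgprb2 and for 0.267% with the proteases. Of the 7 enzymes, 4 were altered in females alone. With the Pparg-/-epi mice of 222 and 225 alone 2 were, and with the WT mice of 217 and 222 alone 0 were. In WT mice the median RPKM was 63.1 for Hpgds and 144 for Ptgs1, against 25.3 for Mcpt4, the highest protease. Which cells made these enzymes was not tested.

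Of 15 genes that signal below FceRI, 1 was altered, Plcg2 (log2 fold change 0.80, SE 0.22, adjusted p = 0.0291). Syk (-0.47, adjusted p = 0.0168) and Ptpn6 (-0.52, adjusted p = 0.0176) passed the adjusted p and not the fold. The most abundant per length were Fcer1g, Ptpn6 and Plcg1 (0.31, adjusted p = 0.137), which other immune cells also make, and the median of the list was 0.26.

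**Figure D5:**
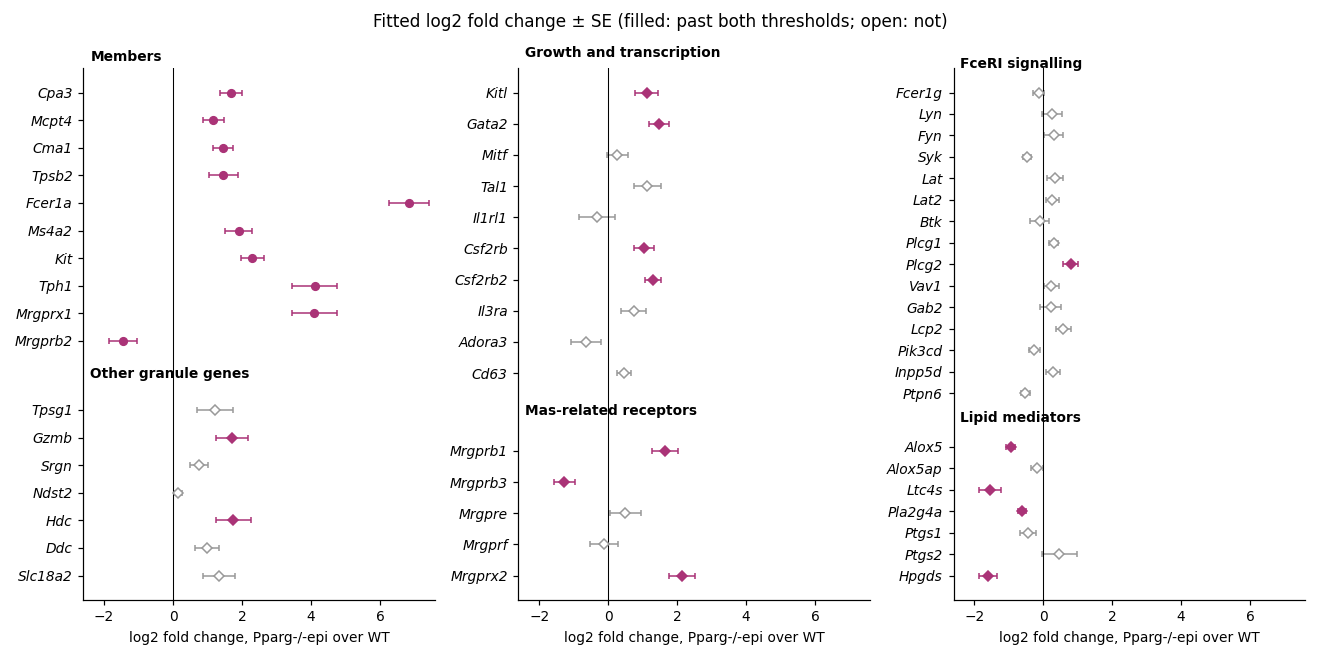
Fitted log2 fold change of Pparg-/-epi over WT mice with its SE (6 mice in each group) for the 10 genes and the 44 genes of 5 other mast cell lists, filled where both thresholds were passed. Of the 10 genes, 9 lie between 1.17 and 6.83 and Mrgprb2 at -1.45. The values of Fcer1a, Tph1 and Mrgprx1 depend on the prior count, and the lipid mediator enzymes that passed lie below 0.

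Basophils also make the IgE receptor chains, so their own markers were checked. Of the 4 listed, Mcpt8, Prss34 and Cd200r3 were not among the genes of the table, which lists no gene under its filter, and Itga2, which other skin cells also make, differed by -0.14 on the log2 scale (adjusted p = 0.722). None of the summed levels of the 10 other cell type lists differed between groups past the adjusted threshold, with the lowest p at 0.0671 and the lowest adjusted p at 0.433. Of their single genes 3 were altered, the endothelial Emcn (log2 fold change 1.79, adjusted p = 0.0340), the T cell gene Cd3e (-0.75, adjusted p = 0.0325) and the basal keratin Krt14 (0.98, adjusted p = 0.00559).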

How the data were processed

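Poly(A) RNA of epidermal scrapings was sequenced from 12 mice, 6 WT and 6 Pparg-/-epi. The authors aligned the reads with STAR 2.5.2b to mm10, kept reads of good quality that mapped to a single place, and deposited the counts per gene from featureCounts (Subread 1.5.1), without normalization and with genes of low counts left out. The table lists 14533 genes, and 2800 blank rows were dropped. The counts of all genes were compared with edgeR 4.0.16 (TMM, quasi-likelihood test, genotype as the only term, R 4.3.3), with Benjamini-Hochberg adjustment over 14533 genes. The SE of a fitted log2 fold change is its size divided by the square root of the quasi-likelihood F statistic. The likelihood ratio test, which the study's methods name, and DESeq2 1.42.0 were alternatives.

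The 10 genes and the gene lists were chosen with earlier results of these data known. Log2 CPM with a prior count of 2 was used for correlations and for levels relative to the proteases, and marker sums were compared with exact permutation tests (Python 3.11.15, scipy 1.17.1). The test was also run on simulated counts, and the outcome is not given here. Named were the 10 genes, altered, most abundant or protease-like (r over 0.8) genes of the other mast cell lists, basophil and melanocyte markers, Pparg, and the genes most like the proteases (10) and Mrgprb2 (5). The genes most like Fcer1a are not reported here. The 2 mice without a description label, Pparg-/-epi replicates 11 and 12, were matched to their columns through the library number in the title. A run sheet in the paper's supplement pairs that number with a mouse name, and its sex, RIN and rounded age were those of the labels. Their breeding number rests on this match. Intervals cover counting error only.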

Additional observations from a re-analysis of the deposited data

Results flagged for a closer look

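The level of each of the 10 genes was examined in each group for a mouse far from the other 5. In 4 of 20 groups the gap to the nearest mouse was more than 0.625 of the group's range, where chance gives about 1 in 20 groups. Kit was at 9.98 CPM in WT replicate 2, above the other WT mice and below every Pparg-/-epi mouse. Mrgprx1 was at 0.212 CPM in the same mouse, which is 4 counts, and Fcer1a at 0.0672 CPM in WT replicate 4, which is 1 count beside 0 in the other WT mice. Most WT mice had 0 counts of these genes, so a few reads set both flags and the rate of 1 in 20 does not apply to them. Fcer1a was at 3.98 CPM in Pparg-/-epi replicate 11, the mouse with the highest protease mean.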

How the results depend on the processing

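The direction of each of the 10 genes was the same in every fit run. That all 10 lay past the thresholds was set by their choice, so the counts of them below describe how far that choice rests on the mice and methods. All 10 did so with the likelihood ratio test, DESeq2, relative log expression factors, library totals and sex, RIN or age as a covariate, and 9 of the 9 kept by a mean of at least 10 counts, a minimum that Mrgprx1 missed. The count over the whole table moved from 1493 to 651 in female mice, 559 with the Pparg-/-epi mice of the breeding numbers 222 and 225 and 389 with the WT mice of 217 and 222, and lay between 1116 and 2249 when any 1 mouse was left out. The 10 genes fell to 5, 7 and 3 altered under those 3 choices and to between 8 and 10 with a mouse left out, the 44 other mast cell genes from 14 to 4, 3 and 1, and to between 9 and 19. These fits use fewer mice, and the last 2 were chosen after seeing the data. Tpsb2 and Mrgprb2 missed the thresholds in 7 of the 12 fits that left out a mouse. Without WT replicate 4 or Pparg-/-epi replicate 9, 9 of the 44 were altered. The likeness of the proteases and Ms4a2 to the protease mean was lowest without WT replicate 6, between 0.76 and 0.93, and the likeness of Mrgprb2 lay between -0.02 and 0.31 when any 1 mouse was left out. No paired analysis was possible because the groups share no replicate numbers, and the 1 breeding number that both hold, 222, has 1 mouse of each. Depth limits what can be said of Fcer1a and Mrgprx1 in WT mice, where no library had more than 4 counts of either.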
